A study of Mus musculus with 30 samples.

Results

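Apolipoproteins are the protein coats of the particles that carry fat and cholesterol in blood. A set of 10 genes was examined, made up of the apolipoprotein genes Apoa1, Apoa2, Apoa4, Apoa5, Apob, Apoc2, Apoc3, Apoe and Apom and of Mttp, which encodes the microsomal triglyceride transfer protein. A gene was counted as measured when the transcript named for a probe in the array files belonged to it. By that rule 9 of the 10 genes were measured, by 13 probes, out of 17016 genes that could be named on the array. No probe matched Apoc2, the activator of lipoprotein lipase, so no value is given for it.

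The RNA came from livers of female C57BL/6 mice acquired at 5 to 6 weeks of age. The 14 exposed mice were instilled through the trachea with 0.162 mg of nanoparticles of the carbon black Printex 90, suspended in 0.9% saline with 10% lavage fluid taken from the lungs of other C57BL/6 mice. The treatment of the 16 control mice is given only as none, and whether they received that fluid is not stated. The labels hold no time between instillation and sampling. The series text speaks of 6 mice per group, fewer than the arrays analysed here. Each animal had 1 two-colour Agilent array with liver RNA in Cy5 and a universal mouse reference RNA in Cy3, with no dye swap.

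Neighbouring animal numbers form 3 runs per group, here exposed runs 1 to 3 and control runs 1 to 3. The exposed runs held 4, 5 and 5 animals and the control runs 6, 5 and 5. What distinguishes the runs is not given in the labels. Over the 30 arrays, the median Cy5 signal lay between 103 and 192 and the median Cy3 signal between 42.5 and 109. The arrays lay on 9 slides, of which 7 held both groups, and exposed animals always sat at positions 3 and 4 of a slide and controls at 1 and 2, so that position and group cannot be told apart. Nothing beyond the animal numbers says that the samples of a group were handled separately, and p-values measure the spread between these animals.

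In the liver, apolipoprotein B is loaded with triglyceride by the transfer protein to form very-low-density lipoprotein (VLDL), and each such particle keeps its apolipoprotein B for life. Apolipoproteins A-I and A-II are the main coat proteins of high-density lipoprotein (HDL), and apolipoprotein M sits on HDL as a carrier of sphingosine-1-phosphate. Apolipoprotein C-III slows the breakdown of triglyceride-rich particles, apolipoprotein A-V speeds it, and apolipoprotein E is the ligand by which remnants are cleared. Apolipoprotein A-IV is made mainly in the gut, and in the mouse also in the liver, where its RNA is known to follow the fat content of the liver.

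The genes Apoa1, Apoc3, Apoa4 and Apoa5 are neighbours on chromosome 9 in the RefSeq table of the mouse build GRCm38.p6. The RefSeq promoter table of that build held windows for 9 of the 10 genes, 13 windows in all, and had none for Apoc3. The 250 bases before the start are shown for Apoa4, the gene with the largest difference among the 9 measured, and for its neighbours Apoa1 and Apoa5, all on the plus strand, at chr9:46240594-46240843, chr9:46228380-46228629 and chr9:46268358-46268607. Capitals mark matches, on either strand, to the TATA box pattern TATAAA, to CAAAGTNCA, a pattern bound by the liver factor HNF4, to the E-box pattern CACGTG, to the nuclear receptor half-site AGGTCA and to the cyclic AMP response pattern TGACGT.
Apoa4: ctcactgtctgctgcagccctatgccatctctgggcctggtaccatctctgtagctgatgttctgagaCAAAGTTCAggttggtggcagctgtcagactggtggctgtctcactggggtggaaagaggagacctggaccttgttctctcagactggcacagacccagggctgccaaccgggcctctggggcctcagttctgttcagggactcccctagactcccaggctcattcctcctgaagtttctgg
Apoa1: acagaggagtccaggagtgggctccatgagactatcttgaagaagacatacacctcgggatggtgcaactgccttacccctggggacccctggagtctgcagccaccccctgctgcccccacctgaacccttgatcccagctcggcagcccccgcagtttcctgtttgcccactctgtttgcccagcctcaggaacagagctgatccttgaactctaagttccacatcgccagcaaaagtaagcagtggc
Apoa5: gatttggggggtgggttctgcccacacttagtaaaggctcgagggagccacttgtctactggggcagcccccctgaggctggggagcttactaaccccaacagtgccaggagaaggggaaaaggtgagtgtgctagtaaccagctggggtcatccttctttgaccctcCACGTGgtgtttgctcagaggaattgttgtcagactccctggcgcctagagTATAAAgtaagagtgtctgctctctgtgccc

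The Apoa4 window held 1 match, the HNF4-type letters CAAAGTTCA starting 182 bases before the start, and no other member's window held that pattern. It stood in 1.19% of all 32851 windows of the same length. The pattern was written down after the Apoa4 window had been read, so its presence there is a description. The Apoa5 window held an E-box starting 82 bases and a TATA box starting 31 bases before the start, and no pattern searched was found in that of Apoa1. TATAAA stood in 12.4% of all windows, CACGTG in 6.02%, AGGTCA in 14% and TGACGT in 6.47%. In the 3 windows shown, no match overlapped one of another pattern.

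All values below are log2 ratios of Cy5 over Cy3 after background correction and loess scaling within each array, or raw Cy5 signals where stated. A gene with several probes is given by the probe with the highest mean Cy5 signal. Each of the 9 measured genes was well above background in Cy5 on 30 of 30 arrays and passed the filter on low signals. A difference was called when its p-value from the moderated test of limma, adjusted by the Benjamini-Hochberg method over all 23607 tested probes, was under 0.05. In whole liver RNA, fewer cells of a type and less RNA per cell cannot be told apart.

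Over all animals, none of the 9 genes differed between exposed and control livers past that threshold, against 0.0169% of all tested probes. Of the 9 estimates 3 were above 0 and 6 below, with a median of -0.12, while the median over all tested probes was 0.01. In the liver channel alone, normalised between arrays by quantiles, the tally turned, with 6 estimates above 0 and 3 below and a median of 0.16. In the ratio Apoa4 alone of the 9 had an unadjusted p under 0.05 by limma, as did 12.2% of all tested probes. The liver channel alone gave unadjusted p-values under 0.05 by limma for Apoa1, Apoa4, Apoa5 and Apob, and no tested probe was called there. The share of all tested probes with an unadjusted p under 0.05 in that channel is not given. These genes are therefore not shown to stand out from other probes there.

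Apoa1, the main protein of HDL, lay between 4.52 and 5.79 (median 5.26) in exposed animals and between 4.75 and 6.64 (median 5.40) in controls. The ranges overlapped, with the highest values in controls, and the difference was -0.22 ± 0.14 (SE; 95% interval -0.50 to 0.05; limma adjusted p = 0.542). Apoa2, the second HDL protein, averaged 5.40 ± 0.37 in exposed and 5.54 ± 0.47 in control livers (SD, n = 14 and 16), a difference of -0.15 ± 0.13 (SE; limma adjusted p = 0.682). Apom averaged 4.11 ± 0.47 in exposed and 4.24 ± 0.59 in control livers (SD, n = 14 and 16), with a difference of -0.12 ± 0.17 (SE; limma adjusted p = 0.824). The ranges of the groups overlapped for all 3 HDL genes.

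Apob, the structural protein of VLDL, was measured by 3 probes. Its brightest probe averaged 6.94 ± 0.40 in exposed and 6.83 ± 0.51 in control livers (SD, n = 14 and 16), with values from 6.17 to 7.50 in exposed animals and from 6.06 to 7.71 in controls. The difference was 0.09 ± 0.14 (SE; 95% interval -0.19 to 0.37; limma adjusted p = 0.854). The other probes gave 0.19 ± 0.16 and 0.14 ± 0.17 (SE). Mttp averaged 3.01 ± 0.44 in exposed and 2.94 ± 0.27 in control livers (SD, n = 14 and 16), a difference of 0.06 ± 0.11 (SE; 95% interval -0.15 to 0.28; limma adjusted p = 0.869). For both genes of particle assembly the exposed and control ranges overlapped.

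Apoc3, which inhibits lipoprotein lipase, lay between 3.83 and 4.64 (median 4.21) in exposed and between 3.81 and 5.35 (median 4.32) in control livers. The difference was -0.16 ± 0.11 (SE; limma adjusted p = 0.573), and its second probe gave -0.09 ± 0.10. Apoa5, which helps the lipase, averaged 5.80 ± 0.49 in exposed and 5.87 ± 0.55 in control livers (SD, n = 14 and 16). Its 2 probes differed by -0.06 ± 0.16 and -0.03 ± 0.10 (SE) between the groups. Apoe averaged 5.30 ± 0.37 in exposed and 5.46 ± 0.50 in control livers (SD, n = 14 and 16), a difference of -0.15 ± 0.13 (SE; limma adjusted p = 0.691). None of these intervals excluded 0, which does not show that the levels were alike.

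Apoa4 lay between 3.83 and 5.50 (median 4.51) in exposed livers and between 3.27 and 4.99 (median 4.41) in control livers. The difference was 0.45 ± 0.18 (SE; 1.37-fold; 95% interval 0.10 to 0.81), with an unadjusted p of 0.0166 and an adjusted p of 0.287 by limma. On the 7 slides with both groups, exposed minus control ranged from -0.07 to 1.21 with a median of 0.23, above 0 on 6 of 7. Without the 4 animals of exposed run 1 the difference was 0.23 (limma adjusted p = 0.562). With the scanner software's own processed signals it was -0.09 (limma adjusted p = 0.925).

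**Figure D1:**
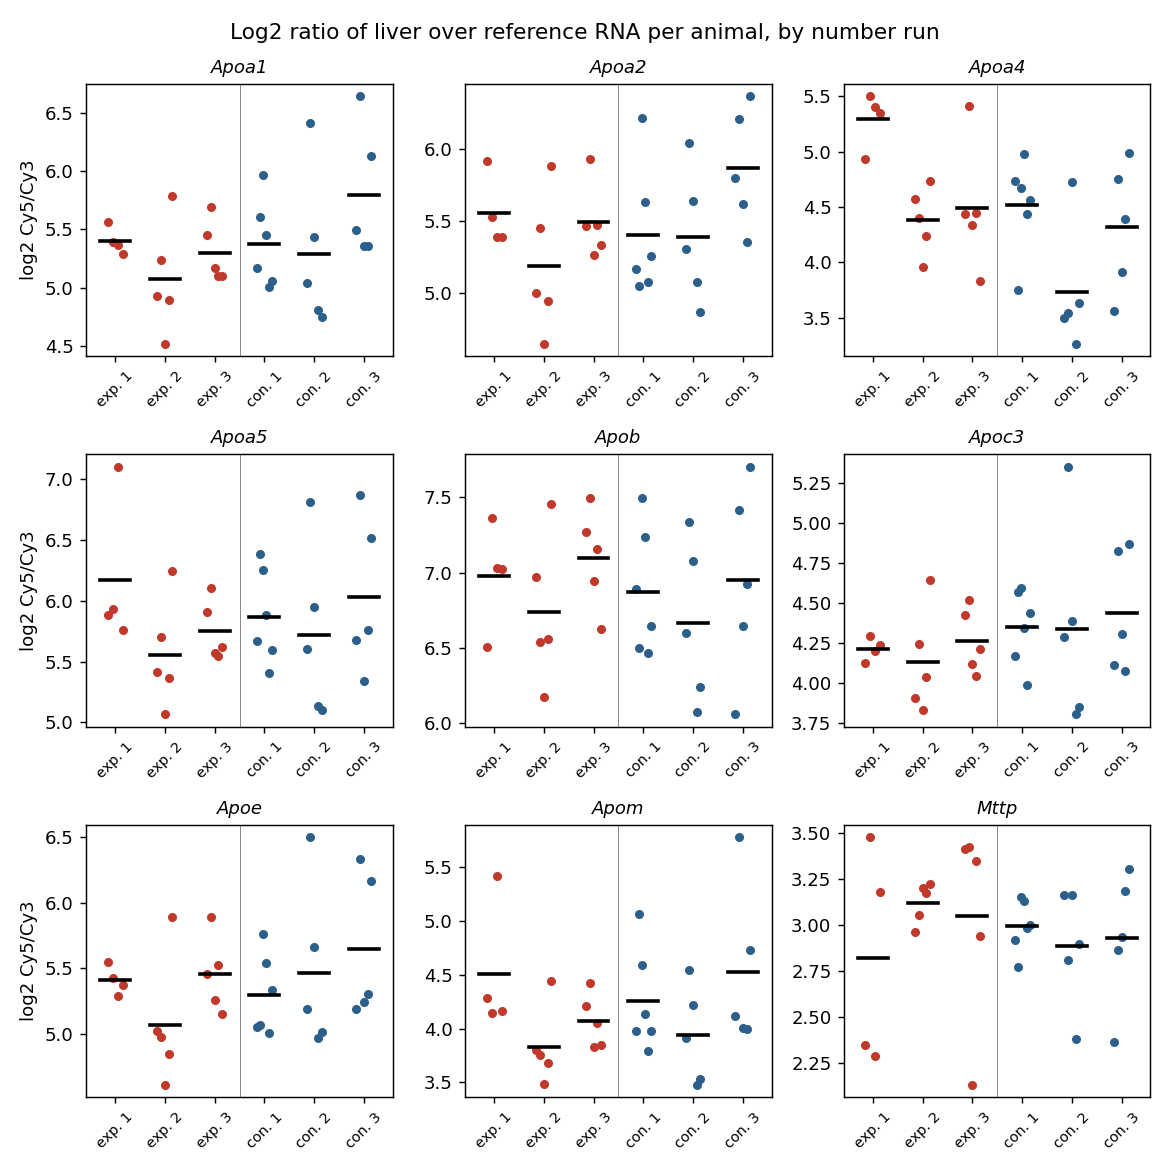
Log2 ratio of liver over reference RNA (y axis) for each animal (points), by number run (x axis, exposed runs left of control runs), with the mean of each run as a line. Apoa4 had its highest mean in exposed run 1, as did Apoa5. The lowest Apoa4 value of that run, 4.94, lay below the highest control, 4.99, and the other genes also showed runs that overlap.

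As processed here, the exposed runs were not alike for many genes of the array. Differences among the 3 exposed runs were called for 4.13% of tested probes and differences among the 3 control runs for 0.089%, by the moderated F test of limma. The exposed-run count was 976 probes, against 160 with position within a pair as a term and 167 with slide as a fixed term. It was 125 with median centring and 1858 with array weights. None of the 9 genes was called in either test. Apoa4 came nearest among exposed runs (F = 5.43, adjusted p = 0.116) and had F = 4.99 among control runs (adjusted p = 0.591).

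The mean of the 3 control runs was then compared with exposed run 1, because earlier results of these data were known. It differed at 4.8% of tested probes, and 1.6% were higher. Of the 9 genes, Apoa4 rose and the other 8 did not pass the test, so that 1 of 9 was called. Apoa4 had log2 ratios of 4.94, 5.50, 5.40 and 5.35 in exposed run 1. The 16 controls lay between 3.27 and 4.99, so that all 4 animals of exposed run 1 were above the median control and 3 of them above the highest. All 4 were above the median control for Apoa5, Apoe and Apom as well, and no share over all tested probes is given. For Apoa4 the estimate was as follows. The difference was 1.05 ± 0.23 (SE; 2.07-fold; 95% interval 0.60 to 1.49; limma adjusted p = 0.00705).

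In exposed runs 2 and 3 Apoa4 did not pass the test. It had 4.57, 4.40, 3.96, 4.24 and 4.74 in exposed run 2. It had 4.44, 5.41, 4.33, 4.44 and 3.83 in exposed run 3. Against the control runs the difference was 0.20 ± 0.21 for exposed run 2 and 0.31 ± 0.21 for exposed run 3 (SE; limma adjusted p = 0.756 and 0.554). None of the 9 genes was called in exposed run 2, against 0.0169% of tested probes, or in exposed run 3, against 0.131%. Within the exposed group, Apoa4 in run 1 exceeded run 2 by 0.85 ± 0.28 and run 3 by 0.74 ± 0.27 (SE), and neither difference passed the adjusted threshold (limma adjusted p = 0.0658 and 0.146). Position on the slide went with the runs as well. All 4 animals of exposed run 1 sat at position 3 and all 5 of exposed run 3 at position 4, and all 6 of control run 1 sat at position 1 and all 5 of control run 3 at position 2. With position within a pair as a term, Apoa4 in exposed run 1 was at 1.08 ± 0.28 (SE; limma adjusted p = 0.0522), no longer called, and 288 probes were called in place of 1132.

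The control runs also differed in level, although not past the threshold. Apoa4 averaged 4.52 ± 0.42 in control run 1 (SD, n = 6), 3.73 ± 0.57 in control run 2 and 4.32 ± 0.59 in control run 3 (SD, n = 5 each). The order of the 6 runs by their fitted means was exposed run 1, control run 1, exposed run 3, exposed run 2, control run 3 and control run 2. No run differed from its neighbour in that order beyond the adjusted threshold. Exposed run 1 set against control run 1 alone gave 0.74 ± 0.26 (SE; 1.67-fold; limma adjusted p = 0.251), a comparison in which 0.246% of tested probes were called and none of the 9 genes. Exposed run 2 set against control run 2 alone gave 0.65 ± 0.25 (SE; limma adjusted p = 0.707), where the mean of all control runs gave 0.20. Exposed run 3 set against control run 3 alone gave 0.17 ± 0.25 (SE; limma adjusted p = 0.871). Set against the controls on their own slide, animals 176, 177, 179 and 180 of exposed run 1 differed by -0.05, 0.97, 1.74 and 0.62. Of these 4 differences 3 were above 0. With slide as a fixed term the difference was 0.94 (limma adjusted p = 0.0323).

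**Figure D2:**
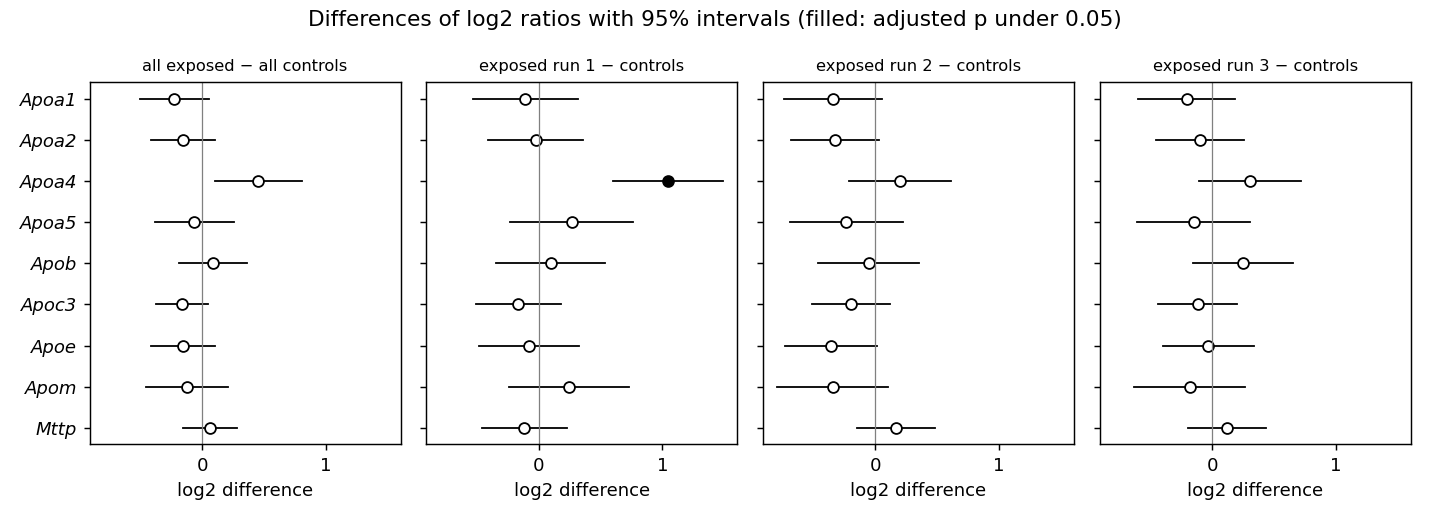
Differences in log2 ratio (x axis) with 95% intervals for the 9 genes (y axis), for all exposed animals against all controls and for each exposed run against the mean of the 3 control runs. Only Apoa4 in exposed run 1, at 1.05, passed the adjusted threshold (filled point).

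The raw liver signal of Apoa4 was also highest in exposed run 1. Raw Cy5 was 6394, 3640.5, 4556.5 and 3277 in exposed run 1. In the other exposed animals it ranged from 1401 to 2941, and in controls from 1027 to 3082 (median 1674). The 4 animals of exposed run 1 thus had the 4 highest raw signals of all 30, the lowest of them 3277 beside 3082 in a control. Raw signals are not scaled between arrays, and the share of probes with such an order was not counted. With the Cy5 channel alone, normalised between arrays by quantiles, they lay between 11.89 and 12.96 on the log2 scale, against 9.50 to 11.35 in controls. In Cy5 exposed run 1 thus lay above every control for Apoa4, as it did for 0.445% of tested probes. The difference in Cy5 was 1.50 ± 0.20 (SE; limma adjusted p = 2.15e-05), in a comparison with 3.56% of tested probes called. Of the 9 genes, Apoa4 was again the one called, and it was also called among the 3 exposed runs in Cy5 (limma adjusted p = 0.00104), where 1.82% of tested probes were.

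The reference channel of Apoa4 was dim, with a mean raw Cy3 of 63.5, well above background on 27 of 30 arrays. Cy3 holds the same RNA on every array, and in exposed run 1 it was 0.34 ± 0.10 above the control runs (SE; unadjusted p = 0.00137 and adjusted p = 0.696 by limma). The difference in exposed run 1 was 1.05 in the ratio and 1.50 in Cy5, and the part of Cy3 in that gap was not tested. Treatments of the background moved the difference in the ratio both ways. With no background correction the difference in exposed run 1 was 1.21 (limma adjusted p = 0.000978). Without an offset after background correction it was 0.63 (limma adjusted p = 0.359), and with the scanner software's processed signals it was 0.50 ± 0.42 (SE; limma adjusted p = 0.505). In the deposited value table it was 1.22 (limma adjusted p = 0.00105).

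**Figure D3:**
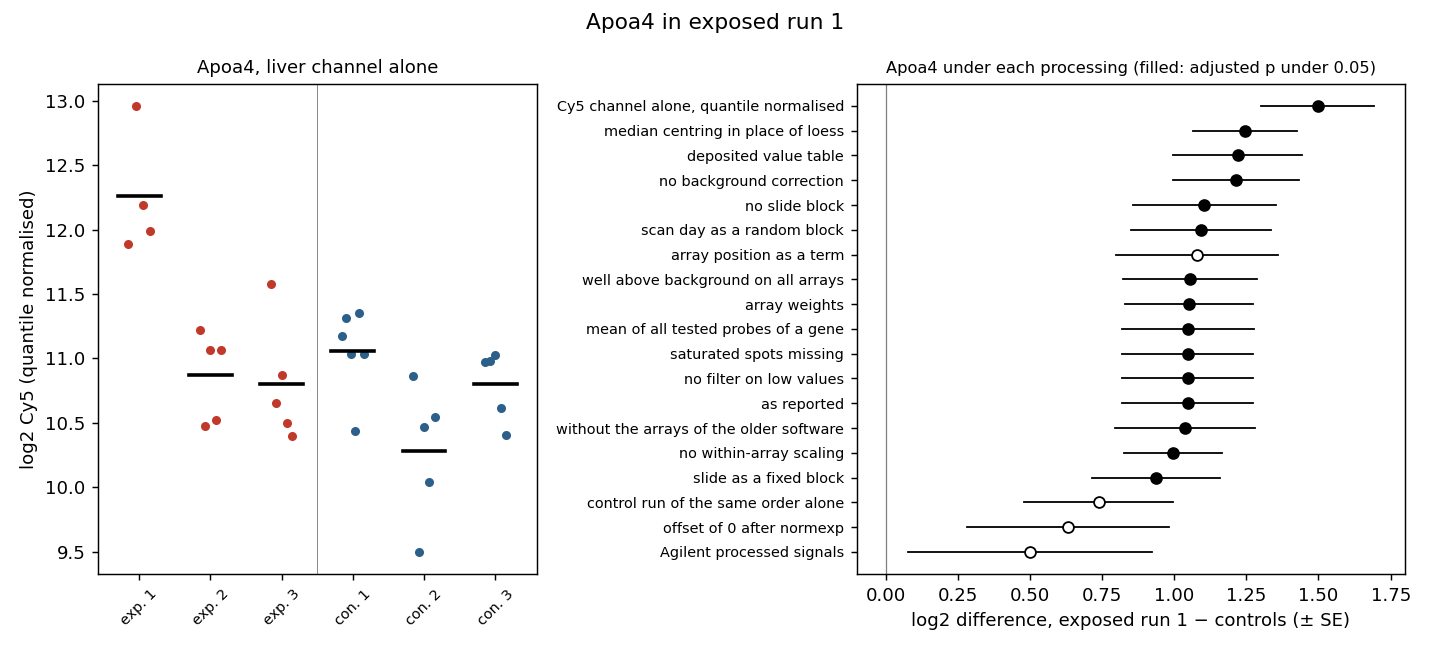
Left, log2 Cy5 of Apoa4 after quantile normalisation (y axis) for each animal by number run (x axis), with run means as lines. The 4 animals of exposed run 1 lie between 11.89 and 12.96, above all other animals. Right, the difference of exposed run 1 from the control runs (x axis, log2, ± SE) under each processing (y axis), from 0.50 to 1.50, with filled points past the adjusted threshold.

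The other 8 genes did not pass the test in exposed run 1. Differences from the control runs were -0.11 ± 0.22 for Apoa1, -0.03 ± 0.20 for Apoa2 and 0.24 ± 0.25 for Apom (SE). For Apob the difference was 0.10 ± 0.23 and for Mttp -0.12 ± 0.17 (SE). Apoc3 and Apoa5, which share the chromosome 9 cluster with Apoa4, differed by -0.16 ± 0.18 and 0.27 ± 0.25 (SE). The last, Apoe, differed by -0.08 ± 0.21 (SE). The second probe of Apoa5 gave 0.05 ± 0.16 and that of Apoc3 -0.03 ± 0.15, and the other probes of Apob gave 0.07 ± 0.25 and -0.04 ± 0.27 (SE). The adjusted p-values of these 8 genes in limma lay between 0.636 and 0.968, and Apoa4 was the gene of the 9 whose log2 ratio spread most over the 30 animals (SD 0.62). Animal 179 of exposed run 1 stood apart for Apoa5, at 7.11 against 5.76 to 5.94 in the other 3, and for Apom, at 5.42 against 4.14 to 4.29. In Cy5 alone Apom was at -0.44 ± 0.14 in exposed run 1 (SE; limma adjusted p = 0.0895), of opposite sign to its ratio. The median over the 9 genes was -0.03 in exposed run 1, -0.24 in exposed run 2 and -0.10 in exposed run 3, beside -0.01, 0.03 and 0.01 over all tested probes. In Cy5 alone the medians over the 9 genes were above 0, at 0.18, 0.17 and 0.10 in exposed runs 1, 2 and 3. In exposed run 2 the lowest estimate was that of Apoe, at -0.36 ± 0.19 (SE; limma adjusted p = 0.518), and in Cy5 alone Apoe was at 0.03 ± 0.05 there (SE). Apoe stood at percentile 99.99 of mean raw Cy5 among tested probes. Quantile normalisation holds such probes near the same value on every array, so its Cy5 difference had little room to move.

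Loess scaling acted most on the brightest probes. Among the brightest 1% of tested probes the median amount taken off the log2 ratio was 1.05, while it was 0.07 among probes between the 40th and the 60th percentile. Apoe lost 1.08 on average over the 30 arrays, between 0.39 and 2.06 on single arrays. Its mean log2 ratio was 6.46 before and 5.39 after scaling. Apoa2 lost 0.85, Apoa1 0.74, Apoc3 0.72, Apom 0.68, Apoa5 0.63 and Apob 0.33. The dimmer probes of Apoa4 and Mttp lost 0.11 and 0.07. The difference in this shift, exposed minus control, lay between -0.11 for Mttp and 0.01 for Apoa1. In exposed run 1 the shift was above that of the controls by 0.18 for Apoe and 0.15 for Apoa1, and below it by 0.04 for Apoa4 and by 0.20 for Mttp.

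**Figure D4:**
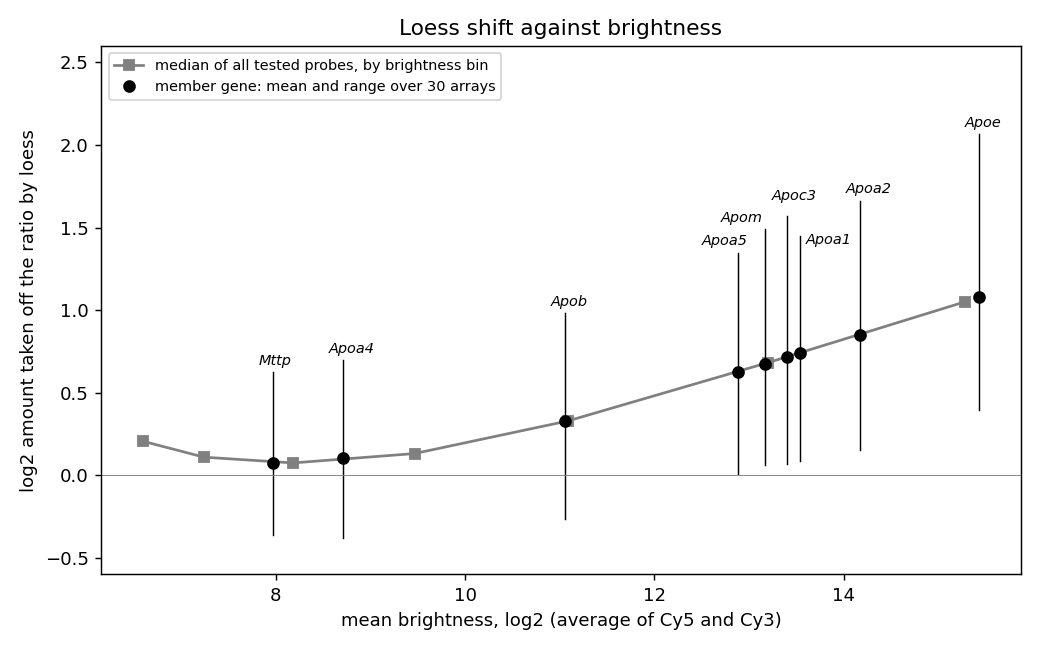
Amount taken off the log2 ratio by loess scaling (y axis) against the mean brightness of a probe (x axis, log2), for the 9 genes as means with their range over 30 arrays (points and lines) and for all tested probes as medians of 7 brightness bins (squares). The shift grew with brightness from the middle bin, at 0.07, to 1.08 for Apoe.

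For these bright genes the ratio and the liver channel gave different pictures. Raw Cy5 of Apoe lay between 355511 and 492772 in exposed livers (median 432129) and between 357365 and 454034 in controls (median 400539), with no saturated spot. Its log2 Cy5 had an SD of 0.13 over the 30 animals while its log2 ratio had one of 0.44, and slide accounted for 79.7% of the variance of that ratio. The reference signal on its spots ranged from 1428 in control 572 to 11478 in exposed 195. Control 572 also had the highest log2 ratio of Apoe, 6.50, and exposed 195 the lowest, 4.61. Slide accounted for 48.1% to 79.7% of the variance of the log2 ratio of the 9 genes. With 2 to 4 arrays per slide, part of such a share can arise by chance. No share over all tested probes is given, so it is not shown to be particular to these genes.

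Over all animals 5 of the 9 genes had opposite signs in the ratio and in the liver channel, namely Apoa1, Apoa5, Apoc3, Apoe and Mttp. In Cy5 alone Apoa5 was at 0.26 ± 0.12, Apoc3 at 0.16 ± 0.08, Apoe at 0.03 ± 0.04 and Mttp at -0.12 ± 0.10 (SE; limma adjusted p = 0.518, 0.553, 0.854 and 0.739). Here too the quantile step left Apoe little room to differ. For Apoa1, raw Cy5 averaged 116592 ± 16892 in exposed and 91790 ± 24503 in control livers (SD, n = 14 and 16). In quantile-normalised Cy5 the difference was 0.25 ± 0.06 (SE; unadjusted p = 0.000346 and adjusted p = 0.195 by limma). In Cy3, the common reference, the arrays of the groups differed by 0.43 ± 0.11 (SE; unadjusted p = 0.000559 and adjusted p = 0.44 by limma). The ratio gave -0.22. Between all exposed and all control arrays none of the 9 genes was called in Cy3, nor was any of the tested probes (0% by limma, with 1596 probes at an unadjusted p under 0.05). For exposed run 1 against the control runs, 10 probes (0.0424%) were called in Cy3, and none of the 9 genes. Apob was 0.33 ± 0.11 in Cy5 alone (SE; limma adjusted p = 0.328), against 0.09 in the ratio.

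Other genes of lipoprotein metabolism were read from 5 lists. Over all animals no gene of any list was called. In exposed run 1, where 4.8% of tested probes were called, 4 of the listed genes passed the test, 2 higher and 2 lower. With 22, 21, 14, 11 and 9 genes tested in the 5 lists, that number lay near the share over all tested probes. Srebf2, which encodes a master activator of cholesterol synthesis and uptake genes, rose by 0.59 ± 0.11 (SE; limma adjusted p = 0.00214), 1 of 22 regulators. Sar1b, a GTPase that helps large particles leave the endoplasmic reticulum, rose by 0.27 ± 0.08 (SE; limma adjusted p = 0.0354), 1 of 21 genes of VLDL assembly and secretion. Abcg1, a cholesterol exporter to HDL, fell by 0.42 on the log2 scale (SE 0.10; limma adjusted p = 0.0159), 1 of 14 genes of HDL and plasma remodelling. Lrpap1, a chaperone of lipoprotein receptors, fell by 0.22 on the log2 scale (SE 0.07; limma adjusted p = 0.0498), 1 of 11 uptake genes.

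None of 9 genes in a list of other apolipoproteins was called, a list that also holds Apobec1, the enzyme that edits Apob mRNA. Apol9b had the smallest p, at -0.35 ± 0.13 (SE; limma adjusted p = 0.117). The medians of the lists in exposed run 1 lay between -0.05 and 0.02, beside -0.01 over all tested probes. Near the threshold stood Acsl1, which activates fatty acids, at -0.33 ± 0.10, and Nr2f2, a repressor of several apolipoprotein genes, at -0.30 ± 0.10 (SE; limma adjusted p = 0.0549 and 0.0733). Over all animals the smallest p in each list belonged to Apol9b (-0.18 ± 0.09), the triglyceride synthase Dgat1 (0.15 ± 0.04), the lipase inhibitor Angptl4 (0.86 ± 0.32), the proteoglycan Sdc1 (-0.25 ± 0.08) and Srebf2 (0.23 ± 0.09), with limma adjusted p-values of 0.407, 0.146, 0.259, 0.174 and 0.285.

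The genes whose log2 ratio was most like that of Apoa4 over the 30 animals were chosen as the 5 with the highest Pearson r among 12179 genes. They were Mmab, an enzyme of cobalamin metabolism (r = 0.855), Nsdhl, a sterol dehydrogenase (0.832), Serpina3n, a secreted protease inhibitor (0.821), Ldhd, the D-lactate dehydrogenase (0.817), and Cyp51, the lanosterol demethylase (0.814). All points share slides and the loess step, and with each slide's mean removed r was between 0.713 and 0.855. It was between 0.579 and 0.83 in Cy5 alone, and between 0.533 and 0.84 with the scanner software's processed signals. They were chosen for following Apoa4 in the same animals, exposed run 1 included, so their estimates there are a description, from 0.33 for Ldhd to 1.07 for Cyp51. Over all animals none of the 5 was called, with limma adjusted p-values from 0.3 to 0.657.

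Marker genes were checked beside the change of Apoa4, which is also made in the gut. The mean log2 ratio of the 5 hepatocyte markers averaged 5.12 ± 0.32 in exposed and 5.21 ± 0.37 in control livers (SD, n = 14 and 16), and 5.05 ± 0.21 in exposed run 1 (SD, n = 4). Of them Ttr, which encodes transthyretin, fell by 1.14 on the log2 scale in exposed run 1 (SE 0.25; limma adjusted p = 0.00802) and the other 4 were not called. Of the 4 intestinal markers on the array 3 were tested and none was called, with Fabp2 at 0.11 ± 0.25, Lgals4 at 0.31 ± 0.23 and Vil1 at -0.14 ± 0.10 in exposed run 1 (SE). The 6 endothelial markers averaged 2.87 ± 0.47 in exposed run 1 (SD, n = 4) and 3.23 ± 0.35 in controls (SD, n = 16), with none called. Of 5 cholangiocyte markers Spp1 was called, at -0.59 ± 0.17 (SE; limma adjusted p = 0.0462), and of 10 macrophage markers none. No adipocyte marker of 4 was tested. The part of these markers in the Apoa4 values was not tested.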

How the data were processed

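Liver RNA of 14 exposed and 16 control mice was measured on 30 two-colour arrays. The deposited scanner files hold spot intensity values for Cy5 and Cy3 from Agilent Feature Extraction 10.7.3.1 (25 arrays) and 10.1.1.1 (5 arrays), per the file headers. They also hold a log10 ratio of the software's background-subtracted, dye-normalised signals, per the file headers. A value table deposited with the series holds the authors' log2 ratios. It was set against the scanner files over 14296 spots, where each column matched its own array best (r 0.950 to 0.991 with unscaled ratios), so its direction is liver over reference, with column medians of -0.045 to -0.021. How it was scaled is not given in the sources used here.

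Median intensities were corrected with normexp (offset 50) and scaled by loess within arrays. R 4.3.3 ran limma 3.58.1, and files were read through data.table at version 1.17.8. Spots with outlier flags were set to missing, which left 1 missing value among the 13 probes of the genes described. Spots of a probe were averaged, and 23607 of 41174 probes were tested, those with Cy5 well above background on at least 14 arrays. Symbols came from RefSeq's table of GRCm38.p6, matched by transcript for 24375 probes. Slide was a random block (correlation 0.159 over all animals, 0.147 for runs), p-values were adjusted by Benjamini-Hochberg, and the threshold was 0.05. The script was tested on simulated data. The number of arrays limits the precision.

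Each of the 9 genes with a probe is described by its tested probe of highest mean Cy5, and its other probes are given over all animals and in exposed run 1. From each list of other lipoprotein genes, up to 3 with the smallest p over all animals and in exposed run 1 could be named, and the 5 genes with the highest Pearson r to the most variable of the 10. 1 gene so chosen is not reported here. The genes, lists and tests were chosen with earlier results of these data known. Alternatives changed the background correction, scaling, channel, filter, block, weights, probe rule and animals used.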

Additional observations from a re-analysis of the deposited data

Results flagged for a closer look

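Within the runs of 4 to 6 animals, 54 sets of values (a gene in a run) were searched for an animal far from the rest, a search in which chance picks about 1 set in 20. It picked 3. Apoa4 was 4.73 in animal 573 of control run 2, against 3.27 to 3.63 in the other animals of that run. Apoa5 was 7.11 in animal 179 of exposed run 1, against 5.76 to 5.94 in the other 3. Apom was 5.42 in the same animal, against 4.14 to 4.29 in the others. For that animal the Apoa5 probe had a raw Cy5 of 41237.5 and a raw Cy3 of 177, and the Apom probe a raw Cy5 of 21614.5 and a raw Cy3 of 317.5. The part of the low reference signal in these ratios was not tested.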

How the results depend on the processing

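Apoa4 in exposed run 1 was above the control runs in 18 of 18 processing settings, by 0.50 to 1.50, and was called in 14 (limma adjusted p from 2.15e-05 to 0.505). With it, 0 of the 9 genes were called with the scanner software's processed signals, with array position as a term, against control run 1 alone, and with an offset of 0, the last an alternative chosen after seeing the data. Apoa4 was then at 0.50, 1.08, 0.74 and 0.63 (limma adjusted p = 0.505, 0.0522, 0.251 and 0.359), and the cause was not tested. Some of the 18 settings could not move the Apoa4 estimate. No spot was saturated, so treating saturated spots as missing repeated the reported fit. Apoa4 had 1 probe, so averaging the probes of a gene kept 1.05, as did dropping the filter on low signals. Leaving out 1 animal gave 0.93 to 1.23, called in 30 of 30 (limma adjusted p from 0.0017 to 0.0469). Among the 3 exposed runs, 1 gene, Apoa4, was called with no background correction, median centring, no scaling, the deposited value table, Cy5 alone and array weights (limma adjusted p = 0.0187, 0.0133, 0.0485, 0.018, 0.00104 and 0.0411).

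Over all animals Apoa4 lay between -0.09 and 0.52 in 18 settings, called in 0 (limma adjusted p from 0.108 to 0.925). No other gene was called in any comparison under any setting run. Probes called in exposed run 1 numbered 1132, against 1983 with processed signals, 1789 without background correction, 174 with median centring, 250 without scaling, 427 with slide as a fixed term, 288 with position as a term and 58 against control run 1 alone. No paired analysis by replicate number was possible, as the groups share none, and slide served as the block. For Apoa4 and Mttp, Cy3 was well above background on 27 of 30 arrays each, which limits their ratios.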
